A study of Mus musculus with 3 samples.

Results

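The genes described here are 29 genes of fatty acid uptake, activation and beta-oxidation, together with their transcriptional regulators, out of 55502 features in the deposited count tables. The list is defined by known function. All 29 have a row in each of the 3 tables. Levels are given as CPM, the counts of a gene per 1000000 counts of nuclear-encoded genes, summed over the wells of a group. A gene was treated as measured in a comparison when its mean CPM over both groups was at least 5, which held for 28 of the 29 genes in every comparison; Cpt1b was below that level.

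The study profiled single wells of adult mouse heart cells, labelled as adult cardiomyocytes, from mice given tamoxifen. The series names Myh6-MCM;Ino80fl/fl hearts, in which a Cre recombinase activated by tamoxifen is driven by the promoter of a cardiomyocyte myosin, whereas the genotype labels read INO80_OE. INO80 is the ATPase of a chromatin remodelling complex. The day 1 and day 2 libraries carry the label INO80_OE only, and the day 3 library carries both INO80_OE and Ctrl, with no file that assigns its wells to either. All 3 libraries were treated with tamoxifen, the age of the mice and the number of hearts behind each library are not given in the labels, and the day 0 cells named in the design text were not analysed here. Within day 3, wells were therefore divided by their own Ino80 level, into 401 wells at 1000 CPM or more (Ino80-high), 441 wells under 100 CPM (Ino80-low) and 48 wells between. This division rests on a measured level and not on a label, and neither set of wells is called a genotype here.

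Heart muscle draws most of its energy from fatty acids. Lipoprotein lipase frees them from circulating lipoproteins at the capillary wall, CD36 and fatty acid transport proteins carry them across the cell membrane, and the heart fatty acid binding protein carries them in the cytosol. Acyl-CoA synthetase activates them, the carnitine shuttle moves them into mitochondria, and repeated cycles of dehydrogenation, hydration, a second dehydrogenation and thiolysis release acetyl-CoA, with electrons passed on through the electron transfer flavoprotein. PPARalpha and the estrogen-related receptor ERRalpha, with the coactivator encoded by Ppargc1a, are known activators of these genes in heart.

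The tables held 1232, 1063 and 1099 wells for days 1, 2 and 3, with 452069809 to 487459959 counts per library. The comparisons used the cardiomyocyte compartment, meaning kept wells outside clusters named as another cell type: 514, 606 and 890 wells. It is defined by exclusion, and only 25 day 1 and 4 day 3 wells of it carried a name of their own, atrial cardiomyocyte-like. The rest lay in clusters left without a name. The cluster with 58.4% of day 1 compartment wells had Trbc2 and Ccl5 first among its leading genes. In it, 3 pericyte and smooth muscle markers were 2-fold above other wells. The cluster with 95.9% of day 2 compartment wells had Igkc and Igha first. In these clusters 0 ventricular markers were 2-fold above other wells. All 14 ventricular cardiomyocyte markers were at 20 CPM or more in every compartment group, but the same held in macrophage-, endothelial- and fibroblast-like wells. That level therefore does not set the compartment apart from wells named as other cell types. These markers summed to 97607 to 100722 CPM in macrophage-like and 101530 to 104314 CPM in fibroblast-like wells. In endothelial-like wells they summed to 107402 to 113959 CPM, and in the compartments of the 3 libraries to 119705 to 126292 CPM. Ino80-high compartment wells, at 81387 CPM, lay below all of these. Ino80 stood at 2895 CPM on day 1, 5170 CPM on day 2, 3033 CPM in Ino80-high wells and 18.3 CPM in Ino80-low wells. The median mitochondrial share of a well's counts was 40.7% on day 1, 44.3% on day 2, 19.7% in Ino80-high and 22.2% in Ino80-low wells. Between 247 and 278 barcodes were shared by each pair of libraries. Each group is 1 library or a set of wells within 1 library, so no test was possible and no p-value is given. Intervals are exact 95% intervals that treat every count as independent, and they leave out the spread between wells. They can be too narrow: without 1 Ino80-high well, the Acacb ratio of high to low was -1.63, outside its interval of -1.50 to -1.30.

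Promoter sequence was available for 25 of the 29 genes, and these are shown because the members differed together between Ino80-high and Ino80-low wells and are known targets of nuclear receptors. The AGGTCA hexamer that nuclear receptors bind was looked for on both strands in the 250 bases before each annotated start. It was present in 4 of 28 windows, 14.29%, against 14.02% of 32851 windows of all genes. The longer element TNAAGGTCA of the estrogen-related receptors was in none of the 28 windows and in 1.138% of all windows, and the direct repeat with a single-base spacer that PPAR and RXR bind was in none and in 0.338%. TNAAGGTCA contains AGGTCA, so those searches overlap. A match is a description of the letters only. The windows of the 4 genes with the hexamer follow, with the hexamer or its reverse complement in capitals, and then those of Ppargc1a and Acsl1, which had none and were among the 3 genes with the largest differences between the Ino80 sets of wells. Sequences are from RefSeq on GRCm38.p6, written 5′ to 3′ in the direction of the gene, with annotated exon bases left out. Acadm lies at chr3:153944644-153944893 (minus strand), Cd36 at chr5:17835897-17836146 (minus), Echs1 at chr7:140116477-140116671 (minus), Acadvl at chr11:70015429-70015678 (minus), Ppargc1a at chr5:51567727-51567975 (minus) and the first of the Acsl1 windows at chr8:46470787-46471036 (plus).
Acadm: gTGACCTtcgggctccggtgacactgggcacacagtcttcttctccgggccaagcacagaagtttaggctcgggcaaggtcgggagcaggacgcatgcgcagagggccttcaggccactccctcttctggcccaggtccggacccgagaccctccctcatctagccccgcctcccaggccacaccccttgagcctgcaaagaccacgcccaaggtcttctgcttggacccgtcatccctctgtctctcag
Cd36: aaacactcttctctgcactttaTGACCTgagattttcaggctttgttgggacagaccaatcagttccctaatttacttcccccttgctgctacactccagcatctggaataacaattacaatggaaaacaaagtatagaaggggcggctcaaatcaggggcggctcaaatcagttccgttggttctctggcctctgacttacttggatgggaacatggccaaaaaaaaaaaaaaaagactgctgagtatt
Echs1: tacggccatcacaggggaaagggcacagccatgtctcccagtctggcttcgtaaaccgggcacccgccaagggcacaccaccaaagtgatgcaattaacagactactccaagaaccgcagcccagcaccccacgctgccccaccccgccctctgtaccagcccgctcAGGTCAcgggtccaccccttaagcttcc
Acadvl: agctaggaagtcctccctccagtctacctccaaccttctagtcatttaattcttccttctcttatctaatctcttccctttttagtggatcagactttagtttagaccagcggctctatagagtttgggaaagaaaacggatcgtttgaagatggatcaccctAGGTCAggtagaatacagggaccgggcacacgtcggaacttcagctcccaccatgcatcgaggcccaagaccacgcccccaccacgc
Ppargc1a: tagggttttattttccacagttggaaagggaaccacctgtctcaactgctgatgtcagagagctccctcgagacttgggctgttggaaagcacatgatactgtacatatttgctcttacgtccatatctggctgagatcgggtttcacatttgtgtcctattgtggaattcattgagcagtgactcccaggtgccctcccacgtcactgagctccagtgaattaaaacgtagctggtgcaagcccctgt
Acsl1: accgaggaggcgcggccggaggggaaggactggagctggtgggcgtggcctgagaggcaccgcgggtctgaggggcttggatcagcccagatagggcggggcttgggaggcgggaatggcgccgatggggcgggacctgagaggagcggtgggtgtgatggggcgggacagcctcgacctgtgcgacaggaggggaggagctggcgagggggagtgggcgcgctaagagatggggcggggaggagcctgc

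Compared between wells of the same library, fatty acid genes were lower in Ino80-high than in Ino80-low wells of day 3. Of 28 measured genes, 26 were lower, against 39.4% of all 7916 measured genes, and 2 were higher, against 60.6%. The 2 were Slc25a20 and Pnpla2, and the Pnpla2 ratio, close to 0, turned to -0.21 with median-of-ratios size factors. The median log2 ratio was -0.81, while the median over all measured genes was 0.28. At least 1.5-fold lower were 18 of 28 (64.3%), against 20.7% of all measured genes, and none was at least 1.5-fold higher, against 39.1% of all measured genes. The log2 ratios ran from -2.81 for Ppara to 0.32 for Slc25a20. The sum of the 29 genes in a well had a median of 14002 CPM in Ino80-high wells (quartiles 12594 and 15556 CPM) and 28175 CPM in Ino80-low wells (26091 and 30554 CPM), so the quartile ranges did not overlap. The corresponding medians were 23131 CPM on day 1 and 18890 CPM on day 2. Abundant genes weigh most in such a sum: Lpl stood at 2354 CPM in Ino80-high and 8265 CPM in Ino80-low wells, and Fabp3 at 1954 and 4411 CPM.

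**Figure D1:**
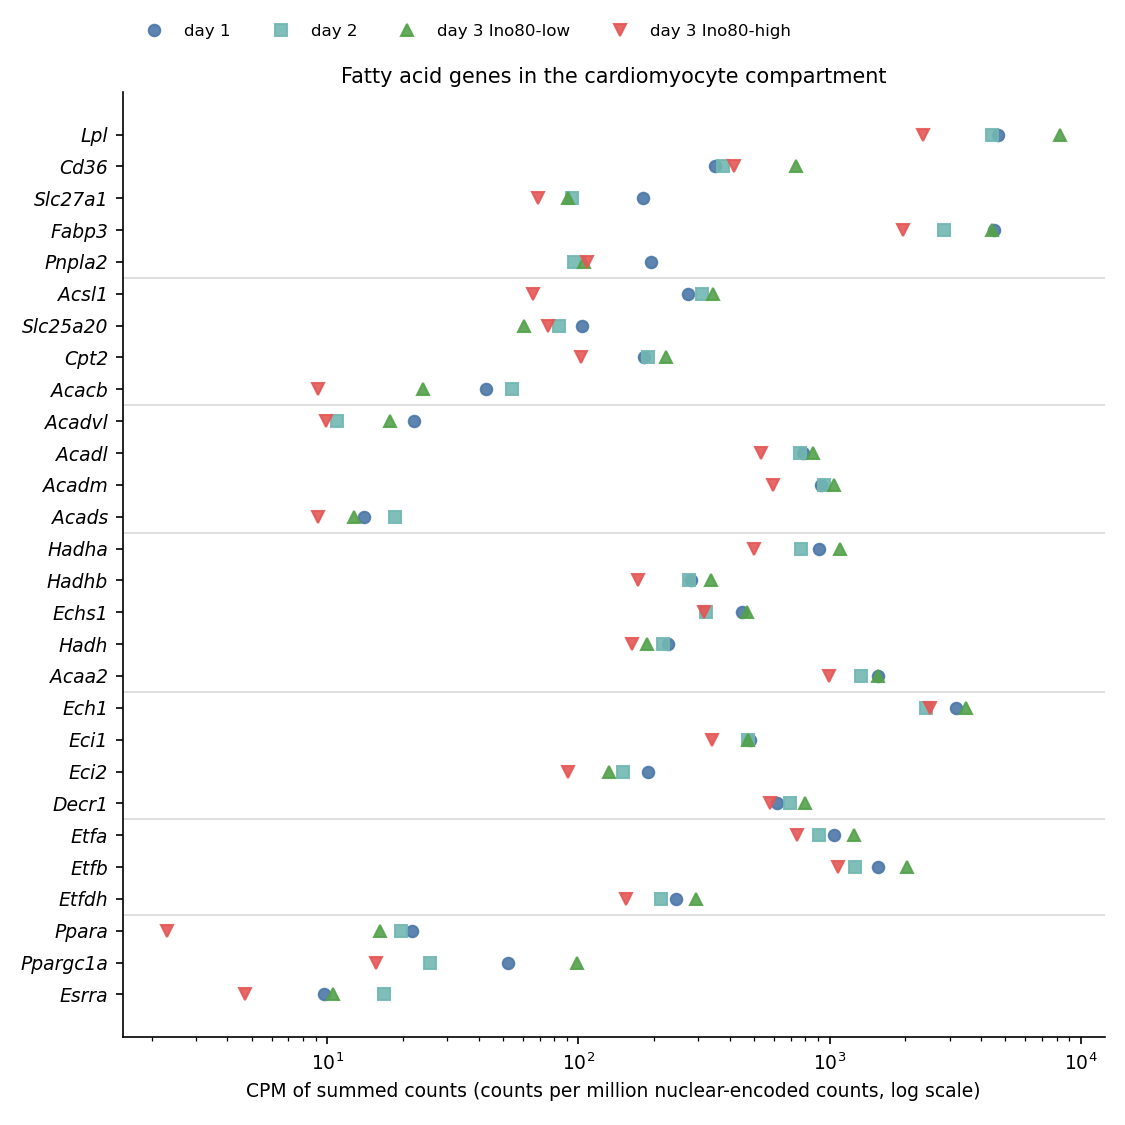
Level of each of the 28 measured fatty acid genes, in CPM on a log axis, in the cardiomyocyte compartment of day 1, day 2 and the Ino80-low and Ino80-high wells of day 3; each symbol is 1 group's summed counts, and grey lines separate uptake, activation, dehydrogenases, later steps, unsaturated fatty acids, electron transfer and regulators. Ino80-high wells hold the lowest level for 24 of the 28 genes, and Ino80-low wells hold the highest for 15. These counts were not taken over all measured genes.

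Among the genes of uptake and lipolysis, Lpl, which encodes lipoprotein lipase (chromosome 8, 68880491 to 68907448), stood at 4693 CPM on day 1, 4416 CPM on day 2, 2354 CPM in Ino80-high wells and 8265 CPM in Ino80-low wells. It was thus highest in Ino80-low and lowest in Ino80-high wells, with days 1 and 2 between, and the log2 ratio of high to low was -1.81 (-1.82 to -1.81). Fabp3, the heart fatty acid binding protein, stood at 4520 CPM on day 1, 2838 CPM on day 2, 1954 CPM in Ino80-high and 4411 CPM in Ino80-low wells, a log2 ratio of high to low of -1.17 (-1.18 to -1.17). Day 1 and Ino80-low wells lay close together for Fabp3, and every Ino80-high well was under the median Ino80-low well. For Lpl, 99.3% of Ino80-high wells were under that median. Cd36, the fatty acid translocase, had another order: 348 CPM on day 1, 376 CPM on day 2, 416 CPM in Ino80-high and 733 CPM in Ino80-low wells. Its log2 ratio of high to low was -0.82 (-0.83 to -0.80), yet the Ino80-high wells were above days 1 and 2. Slc27a1, a fatty acid transport protein, stood at 181, 94.5, 68.7 and 90.9 CPM in the same order of groups, with day 1 highest. Pnpla2, the triglyceride lipase of lipid droplets, was at 194 CPM on day 1, 96.1 CPM on day 2, 108 CPM in Ino80-high and 105 CPM in Ino80-low wells. Its day 3 sets of wells were close, with a log2 ratio of 0.05 (0.01 to 0.08).

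**Figure D2:**
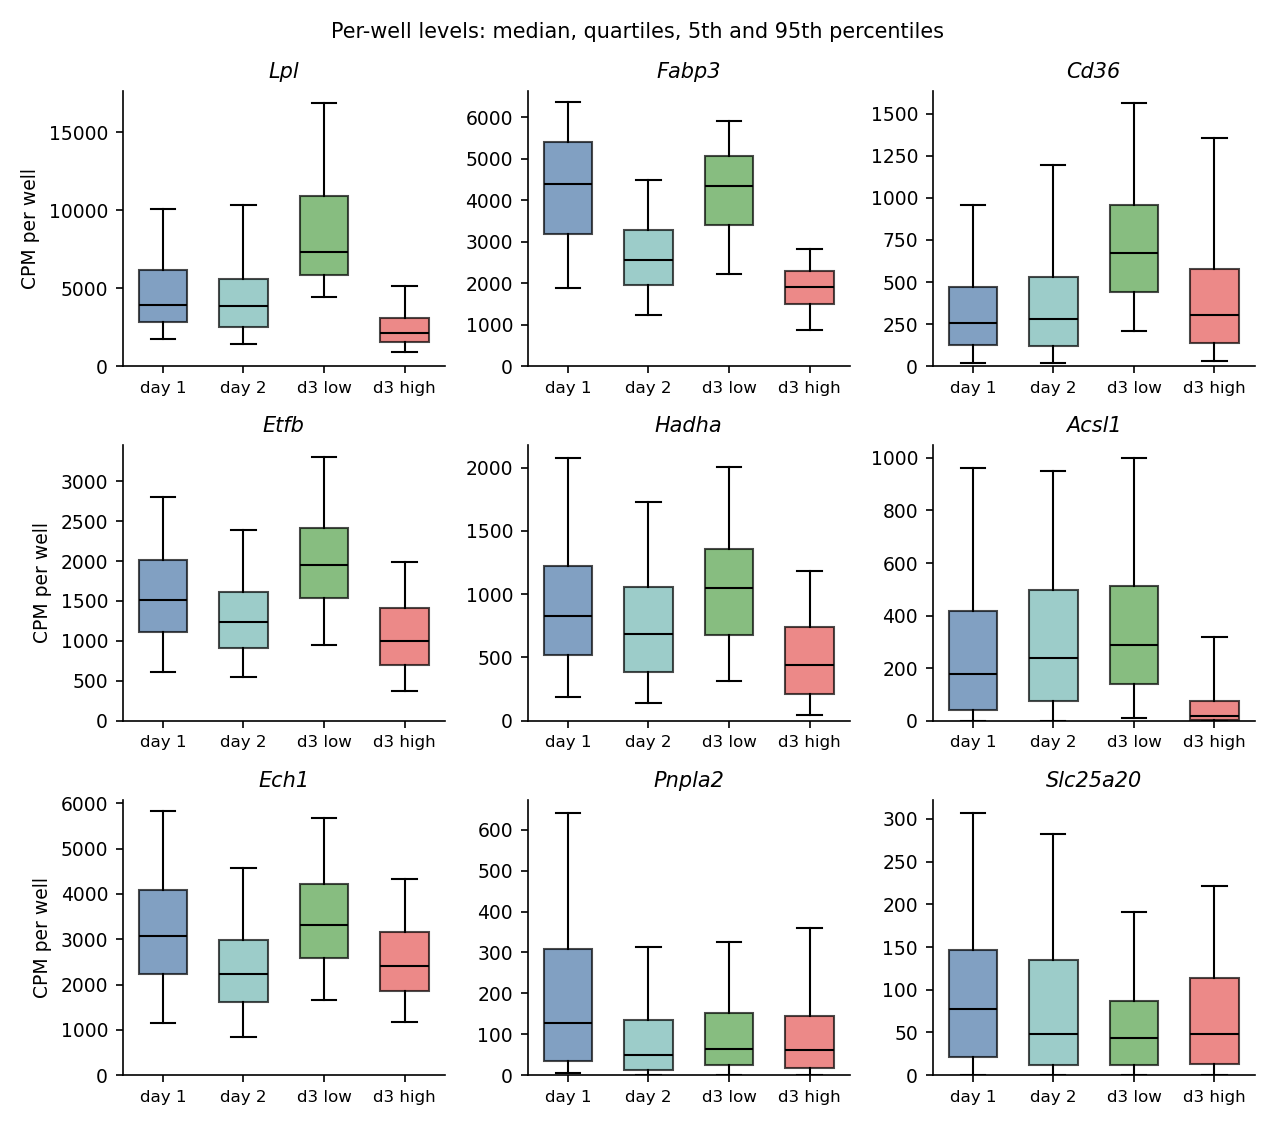
Per-well levels of 9 fatty acid genes, in CPM, in the compartment of day 1, day 2, and the day 3 Ino80-low (d3 low) and Ino80-high (d3 high) wells; boxes give the median and quartiles and whiskers the 5th and 95th percentiles over wells. For Lpl the Ino80-high box ends at 3081 CPM and the Ino80-low box starts at 5845 CPM, whereas for Slc25a20 the medians are 47.7 and 44.0 CPM.

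Activation and the carnitine shuttle held one of the widest differences and, in Slc25a20, the larger of the only 2 ratios above 0. Acsl1, the main long-chain acyl-CoA synthetase of heart (chromosome 8, 46471037 to 46536051), stood at 274 CPM on day 1, 310 CPM on day 2, 65.7 CPM in Ino80-high and 342 CPM in Ino80-low wells. Ino80-high wells were far below the other 3 groups, with a log2 ratio to Ino80-low wells of -2.38 (-2.41 to -2.35), and 93.5% of them were under the median Ino80-low well. Cpt2, the carnitine palmitoyltransferase of the inner mitochondrial membrane, was at 182, 189, 102 and 223 CPM in the order of groups used above, and its log2 ratio of high to low was -1.13 (-1.16 to -1.10). Slc25a20, the carnitine-acylcarnitine carrier, was at 103 CPM on day 1, 83.8 CPM on day 2, 75.7 CPM in Ino80-high and 60.7 CPM in Ino80-low wells. It was lowest in Ino80-low wells, and its log2 ratio of high to low was 0.32 (0.28 to 0.36). Acacb, the acetyl-CoA carboxylase whose product inhibits carnitine palmitoyltransferase, was at 42.9, 54.3, 9.15 and 24.1 CPM, so both day 3 sets lay below days 1 and 2. One Ino80-high well held 15.1% of the Acacb counts of that set; the log2 ratio of high to low was -1.40 (-1.50 to -1.30) with it and -1.63 without it.

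Cpt1b, the muscle form of the outer-membrane carnitine palmitoyltransferase that starts the shuttle (chromosome 15, 89416405 to 89425863), was close to absent from the tables. It had 162 counts on day 1 (1.23 CPM, 1.05 to 1.43), 134 on day 2 (0.859 CPM), 42 in Ino80-low wells (0.244 CPM) and 0 in Ino80-high wells. With a floor of 3 counts in place of 0 over the set of wells, its log2 ratio of high to low was -3.23 (-5.56 to -1.58). Only 6 Ino80-low wells held any count of it, and a single day 3 well held 57.1% of the 42 counts. In the GENCODE M21 annotation, 81.4% of its exon bases are shared with Gm44502 on the same strand, and Gm44502 had 0 CPM in every group. The same held for Etfb, with 58.2% of its exon bases shared with Gm45233 and the microRNA gene Mir7051; Gm45233 also had 0 CPM, although Etfb itself was measured above 1000 CPM. How reads in shared exons were assigned was not tested, so the level of Cpt1b is uncertain here.

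The 4 acyl-CoA dehydrogenases, which open each cycle for chains of different length, were all lower in Ino80-high wells, 3 of them by at least 1.5-fold. Of all measured genes, 39.4% were lower and 20.7% at least 1.5-fold lower. Acadm, for medium chains, stood at 925 CPM on day 1, 945 CPM on day 2, 596 CPM in Ino80-high and 1038 CPM in Ino80-low wells, and Acadl, for long chains, at 786, 764, 532 and 856 CPM. In both, only the Ino80-high wells stood apart, with log2 ratios to Ino80-low wells of -0.80 and -0.69. Acadvl, for very long chains, was at 22.2, 11.0, 9.92 and 17.7 CPM. Its log2 ratio of -0.84 (-0.93 to -0.74) became -0.40 inside the quartiles of the mitochondrial share. Only 12.7% of Ino80-high and 15.6% of Ino80-low wells held a count of Acadvl, so its ratio comes from a minority of wells. Dvl2 on the opposite strand shares 42.9% of the Acadvl exon bases, and without a known strand setting reads of both cannot be told apart; Dvl2 itself was at 1.02 to 3.08 CPM by library. Acads, for short chains, was at 14.0, 18.6, 9.23 and 12.8 CPM. One Ino80-low well held 13.5% of its counts there, and the log2 ratio of -0.47 became -0.27 without that well.

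The later steps were lower in Ino80-high wells for 5 of 5 genes, 3 of them by at least 1.5-fold. The shares of all measured genes were 39.4% lower and 20.7% at least 1.5-fold lower. Hadha, the alpha subunit of the mitochondrial trifunctional protein, stood at 907 CPM on day 1, 767 CPM on day 2, 499 CPM in Ino80-high and 1101 CPM in Ino80-low wells. Its partner subunit Hadhb was at 280, 275, 172 and 336 CPM. The log2 ratios of high to low were -1.14 (-1.15 to -1.13) and -0.97 (-0.99 to -0.94), so the subunits lay close together. Acaa2, a thiolase, Echs1, the short-chain hydratase, and Hadh, the dehydrogenase of shorter chains, had smaller differences, at log2 -0.64, -0.57 and -0.20. The 4 genes that prepare unsaturated fatty acids for the cycle, Ech1, Eci1, Eci2 and Decr1, were all lower within a narrow range, -0.55 to -0.47, and none reached 1.5-fold. Ech1, an isomerase and the most abundant of them, stood at 3196, 2425, 2512 and 3482 CPM, with day 2 slightly below the Ino80-high wells.

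The 3 genes of electron transfer, Etfa and Etfb for the flavoprotein and Etfdh for its dehydrogenase, were lower by -0.75, -0.92 and -0.93 on the log2 scale, each by at least 1.5-fold. That size was reached by 20.7% of all measured genes. Etfb stood at 1562 CPM on day 1, 1265 CPM on day 2, 1075 CPM in Ino80-high and 2028 CPM in Ino80-low wells, and 94.5% of Ino80-high wells were under its Ino80-low median. Per kilobase of exon, Fabp3 was the highest of the 29 genes in all 4 groups, at 5492, 3449, 2375 and 5359 CPM per kilobase. Ech1, Etfb and Acaa2 took the next 3 places in each group. The order of levels was therefore much the same at its top, while Lpl was in place 5 in Ino80-low and place 7 in Ino80-high wells.

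The 3 regulators had low levels, and 2 of them, Ppara and Ppargc1a, had the largest differences of the 28 genes. Ppara (chromosome 15, 85734983 to 85802819) stood at 21.7 CPM on day 1, 19.7 CPM on day 2, 2.31 CPM (2.04 to 2.60) in Ino80-high wells and 16.2 CPM (15.6 to 16.8) in Ino80-low wells. The log2 ratio of high to low was -2.81 (-3.00 to -2.63), the largest of the measured genes, from 266 and 2788 counts. Ppargc1a (chromosome 5, 51454250 to 51567726) stood at 52.5 CPM on day 1, 25.5 CPM on day 2, 15.6 CPM in Ino80-high and 98.9 CPM in Ino80-low wells, with a log2 ratio of -2.66 (-2.73 to -2.59). Esrra, which encodes ERRalpha, was at 9.73, 16.8, 4.73 and 10.5 CPM, with a log2 ratio of -1.16 (-1.30 to -1.02). In all 3 the Ino80-high wells had the lowest level of the 4 groups. The most heavily counted Ino80-high well held 13.5%, 12.6% and 17.4% of the counts of Ppara, Ppargc1a and Esrra. The ratios without those wells were -3.02, -2.85 and -1.42. In wells thinned to an equal number of counts, Ppara was detected in 4.27% of Ino80-high and 11.6% of Ino80-low wells. Esrra was detected in 4.77% and 14.4% of them, and Ppargc1a in 11.8% and 45.2%. The median Ino80-low well held no count of Ppara or Esrra, so their ratios come from a minority of wells.

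**Figure D3:**
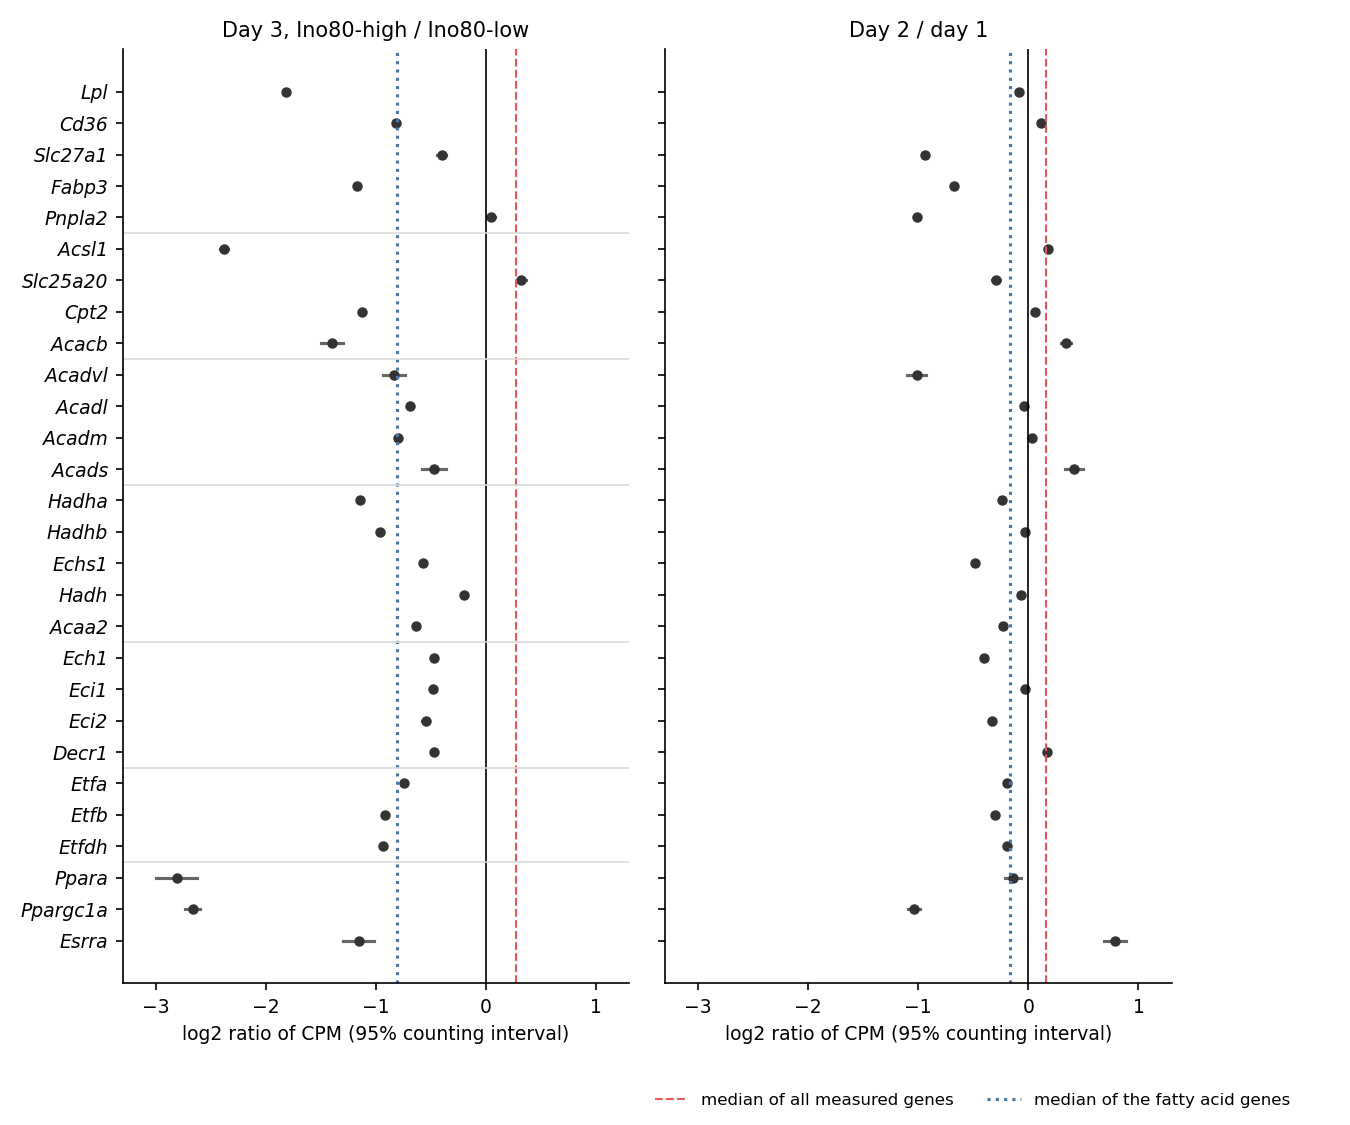
Log2 ratio of CPM of each measured fatty acid gene, for Ino80-high over Ino80-low wells of day 3 (left) and for day 2 over day 1 (right); bars are exact 95% counting intervals, most of them narrower than the point. The dotted line is the median of the fatty acid genes (-0.81 and -0.17) and the dashed line the median of all measured genes (0.28 and 0.16).

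Other cell and quality measures differed between the same sets of wells. The 14 ventricular cardiomyocyte markers had a median log2 ratio of high to low of -0.68, with 13 of 14 lower, a range of -4.11 to 0.27 and summed levels of 81387 CPM in Ino80-high and 144351 CPM in Ino80-low wells. Of the 28 fatty acid genes, 17 lay below that median, so their difference was close in size to that of the ventricular markers. The 12 endothelial markers summed to 1993 and 675 CPM, the 10 macrophage markers to 196 and 41.5 CPM, the 10 atrial markers to 2557 and 1268 CPM and the 6 erythroid markers to 647 and 121 CPM. The 10 fibroblast markers summed to 319 and 231 CPM, and 1 of the 6 erythroid markers was at 0 in Ino80-high wells. Median counts per well were 307645 and 438509. The part of these differences in the lower fatty acid genes was not tested. Restricted to wells with 25 to 35% mitochondrial counts, 43 Ino80-high and 78 Ino80-low, the median log2 ratio of the fatty acid genes was -0.94; with every well thinned to 30000 counts it was -0.75. Ino80-high wells lay almost wholly in 1 cluster (99.0%) and Ino80-low wells in another (96.6%), and these clusters were built from the same counts.

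Wells named as other cell types held much of the same transcripts. In macrophage-like wells, the fatty acid genes stood at a median of 80.4%, 74.7% and 86.4% of their compartment level on days 1, 2 and 3. The level of 23 of 28 genes was lower in Ino80-high compartment wells than in all day 3 macrophage-like wells, by a median log2 ratio of -0.24, against 41.5% of all 7916 measured genes and a median of 0.16 over them. Those macrophage-like wells held low and high Ino80 levels together (Ino80 quartiles 17.1 and 2226 CPM), so this comparison is not matched for Ino80. Among day 3 macrophage-, fibroblast- and endothelial-like wells, 75 were Ino80-high (Ino80 at 2535 CPM) and 78 Ino80-low (14.9 CPM). In these the fatty acid genes had a median log2 ratio of high to low of -1.07, with 21 of 28 at least 1.5-fold lower, against 22.9% of 8522 measured genes, and none at least 1.5-fold higher, against 46.8%. The median over all measured genes was 0.47. Lpl stood at 1932 and 7027 CPM there, and Fabp3 at 1471 and 4196 CPM. Slc25a20 (60.4 and 71.9 CPM) and Pnpla2 (69.4 and 97.1 CPM), the 2 genes higher in Ino80-high compartment wells, were lower in these. Their ventricular markers summed to 66219 and 130465 CPM, so the same direction was seen in wells whose names are not cardiomyocyte. This split was added after the data had been seen.

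Across libraries the differences were smaller and mixed. The compartments of the libraries also differed in make-up. Atrial markers summed to 7236, 291 and 1759 CPM on days 1, 2 and 3. Lymphocyte markers summed to 68.1, 455 and 10.7 CPM and erythroid markers to 36.1, 418 and 319 CPM. Ventricular markers were closer, at 122296, 126292 and 119705 CPM. The part of these differences in the ratios between days was not tested. On day 2 against day 1, 20 of 28 genes were lower, against 37.3% of 8304 measured genes, and 8 were higher, against 62.7%. The median log2 ratio was -0.17, against 0.16 over all genes. At least 1.5-fold lower were 5 genes (17.9%, against 9.09% of all genes) and 1 was at least 1.5-fold higher (20.6% of all genes were). The 5 were Ppargc1a at log2 -1.04 (-1.10 to -0.98), Acadvl at -1.01 (-1.10 to -0.93), Pnpla2 at -1.01, Slc27a1 at -0.94 and Fabp3 at -0.67. The single higher gene was Esrra, at 0.79 (0.69 to 0.89). Pnpla2 stayed past 1.5-fold in all 11 alternatives run, at -1.19 to -1.01. Among wells with 25 to 35% mitochondrial counts Ppargc1a was at -0.02, Slc27a1 at -0.56, Fabp3 at -0.53 and Esrra at 0.49, all within 1.5-fold. That range held 80 day 1 and 110 day 2 wells, and it lay under the day 1 quartiles of 36.5 and 45.0%. Esrra was also at 0.29 as a mean of per-well CPM and 0.26 with thinned counts, and Acadvl was at -0.51 over all kept wells. Lpl (-0.09), Cd36 (0.11), Cpt2 (0.06), Hadha (-0.24) and Ppara (-0.14) differed by less than 1.5-fold. A single day 1 well held 28.1% of the Ppara counts of its group and a single day 2 well 13.1%; without both, the Ppara ratio was 0.13, and among wells with 25 to 35% mitochondrial counts it was 2.06. In Hadh, a single day 2 well held 18.5% of the counts, and its ratio of -0.07 became -0.36 without that well.

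On day 3 against day 1, 23 of 28 genes were lower, against 58.6% of 8087 measured genes, and 5 were higher, against 41.4%. The median log2 ratio was -0.16, beside -0.12 over all genes. At least 1.5-fold lower were 7 of 28 genes, against 21.6% of all genes, which is near that background, and 1 was at least 1.5-fold higher, against 13.4%. The largest were Acacb at -1.24, Slc27a1 at -1.13, Pnpla2 at -0.86, Ppara at -0.84 and Cd36 at 0.82, the last with 348 CPM on day 1 and 615 CPM on day 3. Ppara on day 1 leaned on the well named above, without which its ratio was -0.37, and among wells with 25 to 35% mitochondrial counts it was 3.18. That range held 80 day 1 and 132 day 3 wells. It lay under the day 1 quartiles (36.5 and 45.0%) and reached above those of day 3 (18.6 and 26.3%). Over all kept wells the Ppara ratio was -0.13 and that of Cd36 0.38. Acacb was at -0.37 and Slc27a1 at -0.42 among wells with 25 to 35% mitochondrial counts, and Pnpla2 was at -0.49 with the total over all genes, so none of these 5 stayed past 1.5-fold throughout. With mitochondrially encoded genes included in the total, the median of the fatty acid genes turned to 0.21 beside 0.27 over all genes, so its sign depended on the scaling while its distance to the other genes stayed small. Lpl (0.35), Fabp3 (-0.40), Cpt2 (-0.05), Hadha (-0.07), Ppargc1a (0.31) and Esrra (-0.25) were within 1.5-fold, and Acadvl (-0.62) was past it. A single day 1 well held 12.0% of the Acadvl counts, and its ratio was -0.45 without that well and -0.25 with the total over all genes.

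On day 3 against day 2, 15 of 28 genes were lower, against 67.1% of 8208 measured genes, and 13 were higher, against 32.9%. The median log2 ratio was -0.01, against -0.27 over all genes. At least 1.5-fold lower were 4 genes (14.3%, against 30.6% of all genes) and 2 were at least 1.5-fold higher (8.70% of all genes were). Acacb (-1.58), Esrra (-1.04), Acads (-0.71) and Ppara (-0.70) were the 4, and Ppargc1a (1.35, from 25.5 to 64.9 CPM) and Cd36 (0.71) were the 2 higher genes. Ppargc1a stayed past 1.5-fold in all 11 alternatives run, at 1.03 to 1.80. Among wells with 25 to 35% mitochondrial counts Acacb was at -0.45, Esrra at -0.08, Acads at -0.38 and Ppara at 1.12. That range held 110 day 2 and 132 day 3 wells. Ppara was at -0.50 without the day 2 well that held 13.1% of its counts, and at -0.17 over all kept wells. Acads was at -0.32 with the total over all genes and -0.46 with size factors. Cd36 was at 0.50 with clusters built on 1000 variable genes. Lpl (0.44), Fabp3 (0.27), Acadvl (0.39), Hadha (0.17) and Cpt2 (-0.11) were within 1.5-fold. The day 3 compartment holds Ino80-high, Ino80-low and intermediate wells together. Libraries, days, the make-up of the compartment and the mitochondrial share cannot be told apart in these comparisons.

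Set side by side, the Ino80-low wells of day 3 lay above the earlier days and the Ino80-high wells below them. The median sum of the genes in a well was 28175 CPM in Ino80-low and 14002 CPM in Ino80-high wells. On days 1 and 2 it was 23131 and 18890 CPM. The median log2 ratio of the 28 measured genes to day 1 was 0.12 for Ino80-low and -0.68 for Ino80-high wells, and to day 2 it was 0.21 and -0.50. These ratios share their day 1 and day 2 wells. The level was lowest in Ino80-high wells for 24 of 28 genes and highest in Ino80-low wells for 15 and on day 1 for 10. These medians and counts were not taken over all measured genes, so how far they are particular to the fatty acid genes is not known.

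Other genes of the pathway, taken from lists kept apart from the 29, went partly with them. Over all 7916 measured genes, 39.4% were lower in Ino80-high wells and 60.6% higher, with a median log2 ratio of 0.28. Of 14 measured genes of other mitochondrial oxidation, 13 were lower in Ino80-high wells and 1 was higher, with a median log2 ratio of -0.61; Mlycd, which removes the malonyl-CoA made by Acacb, stood at 41.6 CPM in Ino80-high and 120 CPM in Ino80-low wells, and Pcca, of propionyl-CoA carboxylase, at 17.0 and 40.7 CPM. Of 7 peroxisomal oxidation genes, 5 were lower and 2 higher, with a median of -0.49. Among 17 other regulators, 13 were lower and 4 higher, with a median of -0.93, and Ppargc1b (10.2 and 40.1 CPM) and Perm1 (30.6 and 118 CPM), a coactivator of the same family as Ppargc1a and a muscle regulator of oxidative genes, had the lowest ratios among those above 20 CPM.

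Genes that handle lipid outside the mitochondrion did not share one direction. Of 14 other uptake, binding and activation genes, 5 were lower and 9 higher, with a median log2 ratio of 0.59. Those counts were near the shares of all measured genes, 39.4% lower and 60.6% higher, with a median of 0.28. Vldlr, a lipoprotein receptor, stood at 30.5 CPM in Ino80-high and 243 CPM in Ino80-low wells, and Acot13, a thioesterase, at 525 and 1698 CPM. Angptl4, a secreted inhibitor of lipoprotein lipase, was higher, at 120 and 12.2 CPM, and so was Gpihbp1, the capillary anchor of lipoprotein lipase, at 764 and 148 CPM; Gpihbp1 is also on the endothelial marker list, whose sum was higher in the same wells. Of 11 lipid droplet genes, 6 were lower and 5 higher, against 39.4% and 60.6% of all measured genes, with a median of -0.33. Plin2, a droplet coat protein, was at 384 and 61.5 CPM and Abhd5, the activator of Pnpla2, at 57.4 and 16.7 CPM, whereas Plin5, the droplet coat protein of oxidative muscle, was at 52.2 and 169 CPM and Dgat2, an enzyme of triglyceride synthesis, at 88.3 and 238 CPM.

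**Figure D4:**
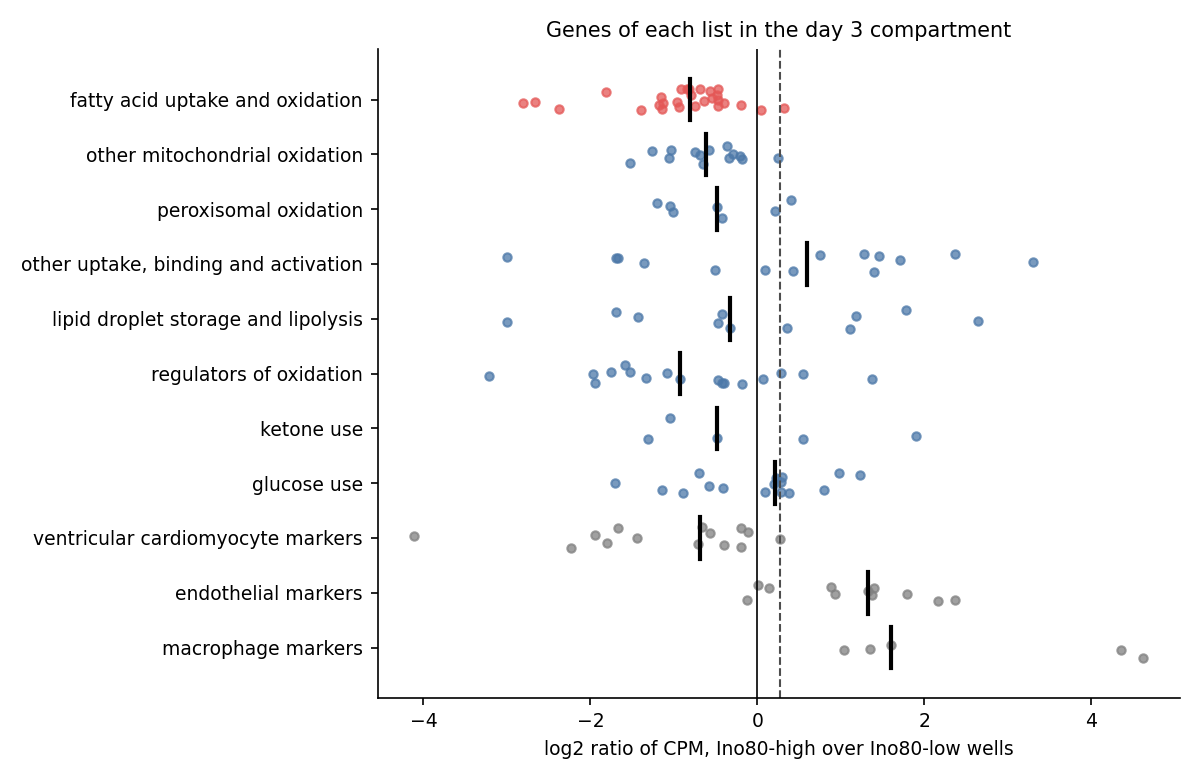
Log2 ratio of CPM, Ino80-high over Ino80-low wells of day 3, for each measured gene of the lists named on the vertical axis; each point is 1 gene, the black bar is the list's median and the dashed line the median of all measured genes (0.28). Medians are -0.81 for the fatty acid genes, -0.61 for other mitochondrial oxidation, 0.59 for other uptake genes and -0.68 for the ventricular markers.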

How the data were processed

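Each deposited table gives whole-number read counts, not normalized, with genes in rows and well barcodes in columns. Reads were processed with cutadapt, STAR and featureCounts on mm10, per the submitters' processing notes; tool versions, strand setting, annotation and duplicate handling are not stated there, so counts are treated as reads. No columns of other samples were found (0). Symbols and coordinates are from GENCODE M21 on mm10.

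Wells with at least 1000 counts and 300 detected genes were kept (1225, 1059 and 1092). They were clustered together in scanpy 1.11.5 (scaled to 10000 counts, log, 2000 variable genes, unit variance clipped at 10, 30 principal components, 15 neighbours, Leiden resolution 0.5, seed 0). A cluster was named when at least 3 fixed markers were 2-fold above other wells at 20 CPM unless more of its 10 leading genes marked another type. No doublet caller was run. Wells were chosen by imaging, per the labels.

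Counts were summed per group and divided by the nuclear-encoded total. CPM have exact Poisson intervals and log2 ratios exact intervals from the binomial split, both at 95%; the interval code was tested on simulated data. The sequences used here are from RefSeq (GRCm38.p6); Cpt1b, Acaa2, Lpl and Decr1 had no entry. In each comparison the 5 genes with the largest ratio and 10 chosen genes are given in full, and genes of other lists are named only from their 2 highest and 2 lowest at 20 CPM or more. The genes, lists and groups were chosen with earlier results of these data known, and no list was tested.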

Additional observations from a re-analysis of the deposited data

Results flagged for a closer look

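Between the Ino80 levels that defined the sets of day 3 wells lay 48 compartment wells, which no comparison above used. Their Ino80 stood at 344 CPM, and their fatty acid genes had a median log2 ratio to the Ino80-low wells of -0.14, beside -0.81 for the Ino80-high wells. Over all measured genes the median ratio of these wells to the Ino80-low wells was 0.09. Lpl stood at 7744 CPM, Fabp3 at 3578 CPM and Acsl1 at 322 CPM in these wells.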

How the results depend on the processing

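No paired analysis was possible because each group is 1 library or a set of wells within it, and for the same reason no replicate could be left out. The Ino80 comparison kept its direction in all 15 alternatives: the median log2 ratio lay between -1.07 and -0.74, with 14 to 25 genes at least 1.5-fold lower and 0 higher. Over all measured genes the median lay between 0.02 and 0.58 in these alternatives. For the alternatives in this section the share of all measured genes past 1.5-fold was not counted, except in the wells of other cell types given above. The Ino80 comparison gave these medians of the fatty acid genes. The median was -1.06 with median-of-ratios size factors, -0.88 over all kept wells, -0.94 at 25 to 35% mitochondrial counts, -0.76 as a mean of per-well CPM, -0.75 both thinned to 30000 counts and at a mean CPM of at least 20, -0.83 with Ino80 at 2000 against under 50 CPM, -0.74 inside the quartiles of the mitochondrial share, and -1.07 in macrophage-, fibroblast- and endothelial-like wells. No ratio of Cpt1b could be given at 25 to 35% mitochondrial counts, as a per-well mean, or in wells named as other types: Ino80-high wells hold 0 counts of it, and the floor of 3 counts is above the Ino80-low level there or has no meaning for a mean of CPM. Its ratio was -0.31 with thinned counts. Pnpla2 lay between -0.48 and 0.09, and Slc25a20 between -0.25 and 0.53.

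Day 2 against day 1 stayed lower in all alternatives, with -0.33 for size factors, -0.21 without atrial-like wells and -0.28 at 25 to 35% mitochondrial counts. That last setting left 3 genes at least 1.5-fold lower, and 0 were higher as a per-well mean, thinned, or at a mean CPM of at least 20.

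Day 3 against day 1 changed sign with the total over all genes, 0.21, with 2 genes lower and 3 higher by 1.5-fold. It was -0.050 with size factors, -0.10 over all kept wells (3 lower, 0 higher), -0.18 without atrial-like wells (2 higher), -0.11 at 25 to 35% mitochondrial counts (5 higher), -0.25 as a per-well mean and thinned, -0.095 at a mean CPM of at least 20 and -0.19 with no minimum. Ppara turned to 3.18 at 25 to 35% mitochondrial counts against day 1 and to 1.12 against day 2.

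Day 3 against day 2 has a median near 0, and its sign was not stable: 0.38 with the total over all genes (2 lower, 8 higher), 0.25 with size factors (2 lower, 7 higher), 0.045 over all kept wells, 0.14 at 25 to 35% mitochondrial counts (0 lower, 6 higher), 0.015 both with 1000 variable genes (1 higher) and at a mean CPM of at least 20 (1 lower), -0.064 as a per-well mean and -0.040 thinned. The cause was not tested in these cases. With 1 library per group, the spread between hearts or libraries is unknown.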

Other observations

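Genes that use other fuels went both ways between the Ino80 sets of day 3 wells. Of 16 glucose use genes, 6 were lower in Ino80-high wells and 10 higher, with a median log2 ratio of 0.21, close to the 0.28 of all measured genes. Of all measured genes, 39.4% were lower and 60.6% higher. Pfkm, the muscle phosphofructokinase, stood at 178 CPM in Ino80-high and 582 CPM in Ino80-low wells, and Hk2, the insulin-responsive hexokinase, at 96.7 and 214 CPM. Pdk4, the kinase that restrains pyruvate entry, was higher, at 95.3 and 48.2 CPM, as was Gapdh, at 1339 and 768 CPM. Of 5 ketone use genes, 3 were lower and 2 higher, and Oxct1, which activates ketone bodies, stood at 869 and 2155 CPM. Of 13 mitochondrially encoded genes 8 were measured. These were close to level, with a median of -0.09 and none past 1.5-fold, while on day 3 as a whole all 8 were at least 1.5-fold lower than on day 1. The others, mt-Co2, mt-Co3, mt-Atp6, mt-Atp8 and mt-Nd4l, were almost without counts. The highest of them in the day 3 sets was mt-Atp6, at 0.38 CPM in Ino80-high wells. The cause was not tested.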
